A study of Mus musculus with 8 samples.

Results

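Tudor domain genes of germ granules were examined in RNA-seq of mouse testis, as 10 genes chosen by symbol out of the 17121 rows of a deposited gene table: Tdrd1, Tdrd3, Tdrd5, Tdrd6, Tdrd7, Tdrd9, Tdrd12, Tdrkh, Rnf17 and Stk31. All 10 had a row, and all 10 were among the 17066 genes that passed a filter on low values. The 8 libraries, of total RNA, were 4 with the genotype CTL and 4 with the genotype N6amt1-SKO, called SKO here. The series asks how N6AMT1, a methyltransferase, acts in the making of sperm. The labels do not spell out SKO or say which promoter or allele made it, give no age or strain, and do not say that each library came from its own animal, so a p-value sets the groups against the spread among libraries, and that spread may be technical only.

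A Tudor domain is a small fold that binds methylated arginine or lysine. In germ cells, proteins with repeats of this fold bind the methylated arginines in the tails of PIWI proteins and so gather the PIWI-interacting RNA (piRNA) machinery in granules without a membrane. In spermatocytes such granules lie between mitochondria (the intermitochondrial cement), and in round spermatids they merge into the chromatoid body. Mouse males that lack one of several of these genes are known to be sterile, with arrest in meiosis or in round spermatids.

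Gaps between the deposited values show, in 6 libraries, read counts that the authors scaled by a factor of each library and rounded. There the factor could be read from the gaps and gave 40.6 to 70.1 M reads (M for 10 to the power of 6), while in CTL 1 and CTL 2 it could not be read. The lowest value of any of the 10 genes in those 6 libraries stood on 2313 reads, in Tdrkh. Normalised values below are the deposited values divided by a TMM (trimmed mean of M-values) factor per library. The share of 18S ribosomal RNA set 3 libraries apart, CTL 3 (0.731% of all values), CTL 4 (0.721%) and SKO 4 (0.969%), from the 5 others (0.173% to 0.273%), and mitochondrial genes took 1.13% to 1.99% in CTL and 2.11% to 4.53% in SKO. The targeted gene N6amt1 did not check the labels, at 433 to 629 in CTL and 557 to 625 in SKO (limma adjusted p = 0.437), and neither the altered part of the gene nor the cells concerned are given in the labels. The extraction protocol names heart ventricles. The 3 heart muscle markers with a row (Myh6, Myh7 and Tnnt2) summed to 704 to 1197 in CTL and 1364 to 2358 in SKO, far below the 204167 to 531186 of the 10 Tudor genes.

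The comparison of the groups asks whether the Tudor genes of the piRNA machinery were expressed at other levels in the SKO testis. Of the 10 genes 5 fell, 0 rose and 5 did not pass (limma, adjusted p below 0.05 over all 17066 genes), where 7.93% of all genes fell and 11.9% rose. The 5 that fell were Tdrd6, Tdrd1, Tdrd7, Tdrd9 and Rnf17. The fitted log2 fold changes of all 10 lay between -1.15 (Tdrd6) and -0.22 (Tdrkh), with a median of -0.58, where the median over all genes was 0.04. In 6 of the 10 (the same 5 and Tdrd5) every SKO library lay below every CTL library, as was the case for 10.6% of all genes. In bulk tissue, fewer cells of a type and less RNA per cell cannot be told apart.

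**Figure D1:**
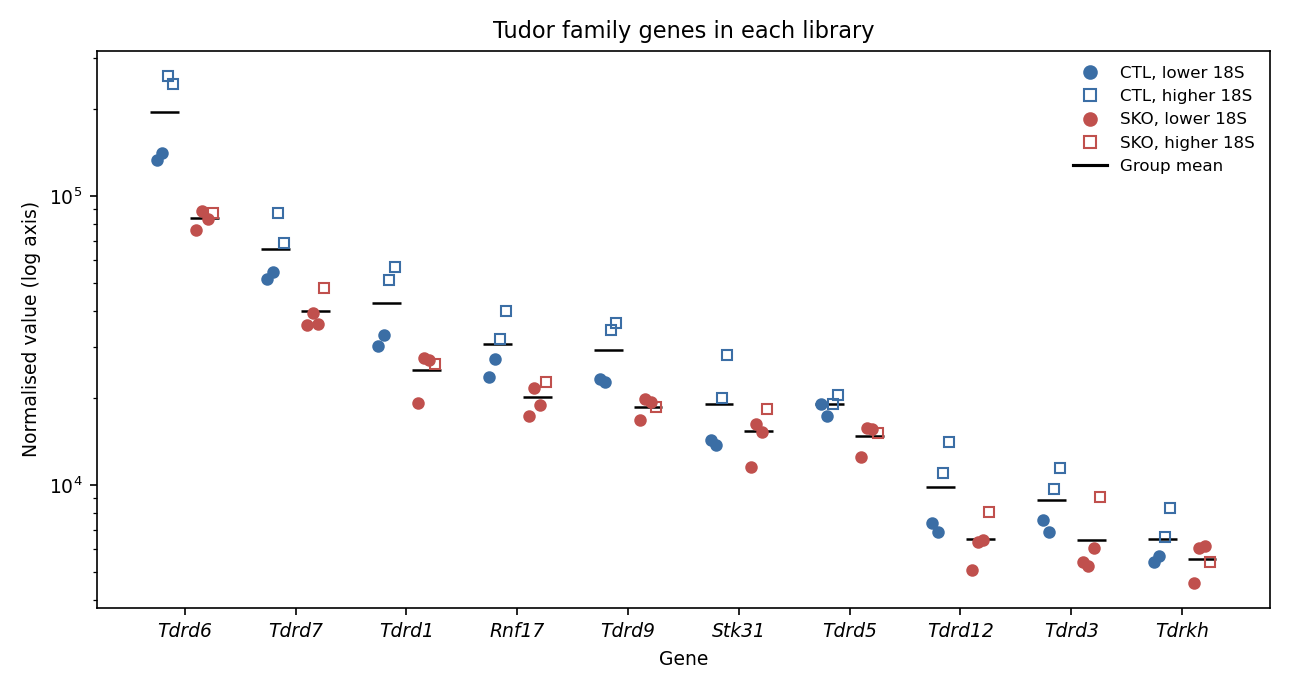
Normalised value (log axis) of each of the 10 genes in each library, ordered by the CTL mean; blue points are CTL, red points SKO, open squares the libraries with more 18S RNA, and bars the group means. For Tdrd6 the 4 SKO libraries sit between 76011 and 88661, below the lowest CTL library at 133460, and CTL 3 and CTL 4 are the 2 highest libraries for every gene.

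The number of calls rested on single libraries and on the scaling. Without SKO 3 limma called 0 of the 10 genes (6 at an unadjusted p below 0.05) and 0 of 17048 genes in all (4784 at an unadjusted p below 0.05). Without CTL 3, SKO 1 or SKO 2, 1 of the 10 passed (Tdrd6 each time), and without CTL 4, 2 passed (Tdrd6 and Tdrd7). Of all genes 3.22%, 2.75%, 2.96% and 8.52% fell in these 4 fits. With library totals in place of TMM factors 1 passed (Tdrd6; 2.67% of all genes fell), and Tdrkh and Stk31 changed sign. Among all genes called, the share that rose was 60.1% under TMM, 49.2% under median-ratio scaling, 67.6% under the upper quartile and 91.5% under library totals. It was 99.9% when pachytene and later spermatocyte markers were held level and 0.0495% when Sertoli markers were held level. Over all genes the median log2 fold change moved to 0.33, 0.53 and -1.07 under the last 3 of these, so directions are relative to the bulk of genes.

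The library set with more 18S RNA crossed the groups, and every Tudor gene had its 2 highest CTL values in CTL 3 and CTL 4. Within the 5 libraries with less 18S (CTL 1, CTL 2 and SKO 1 to 3) 3 of the 10 fell, Tdrd6, Tdrd7 and Tdrd3, where 13.4% of all genes fell. The median log2 fold change of the 10 genes was -0.35 there. Within the 3 libraries with more 18S, the median was -0.62, a value with no test here since SKO 4 is the single SKO library of that set. With the library set as a covariate 6 fell, the same 5 and Tdrd5, where 12.9% of all genes fell.

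**Figure D2:**
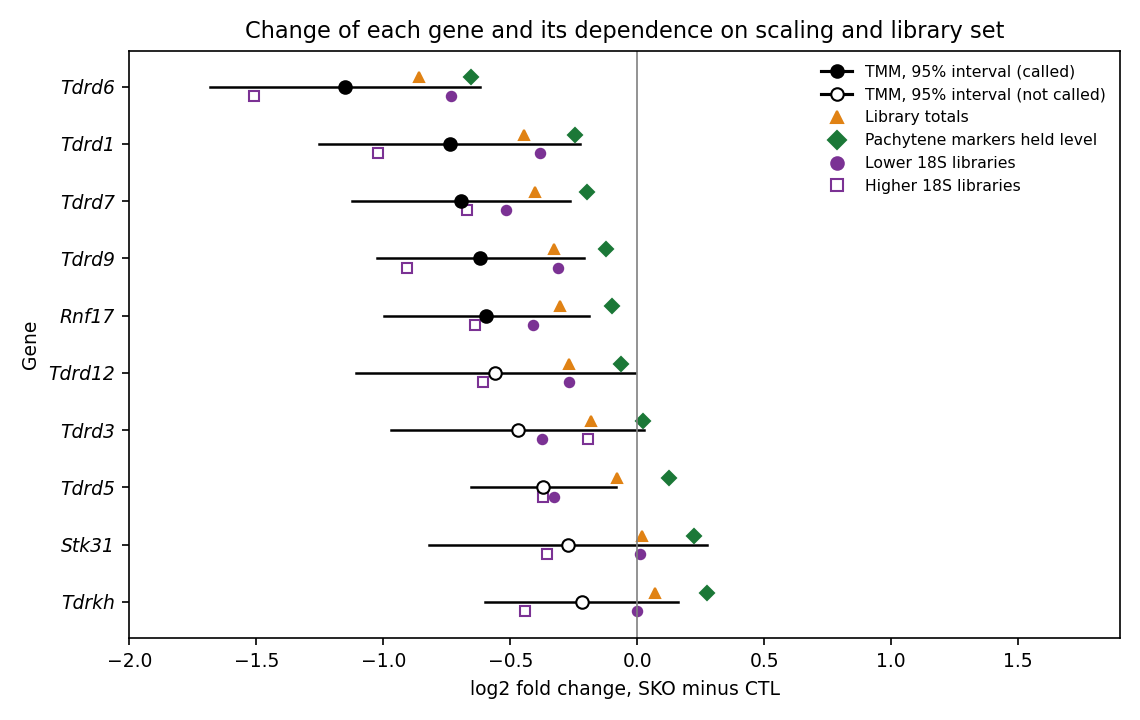
log2 fold change (SKO minus CTL) of each gene with TMM factors and its 95% interval from limma (black; filled where called), with library totals (triangles), with pachytene and later spermatocyte markers held level (diamonds), and within the libraries with less (purple points) or more 18S RNA (purple squares). Tdrd6 lies furthest to the left under each of these settings, from -1.51 to -0.66.

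Tdrd6 encodes a protein of multiple Tudor domains that is needed to build the chromatoid body. It lies in GRCm38 on chromosome 17, 43615335 to 43630299, minus strand, and no other annotated exon overlaps its exons. Its normalised values were 133460, 140962, 260140 and 244573 in the CTL libraries 1 to 4 and 76011, 88661, 83437 and 87629 in the SKO libraries 1 to 4. The SKO libraries lay close together (coefficient of variation 6.84%), whereas CTL 3 and CTL 4 stood well above CTL 1 and CTL 2 (coefficient of variation 34.3%). The means were 194784 ± 66852 and 83935 ± 5745 (SD, n = 4 each). The log2 fold change was -1.15 with a standard error of 0.24, a 2.22-fold lower level (limma adjusted p = 0.0159). It was the 111th lowest fold change of 17066. Within the libraries with less 18S it was -0.73 (limma adjusted p = 0.0165), and between the single SKO library and the 2 CTL libraries with more it was -1.51, a value with no test. Leaving out single libraries gave -1.36 to -1.04, with a call in 7 of 8 cases and a limma adjusted p of 0.061 without SKO 3. Per kilobase of exon Tdrd6 was also the most abundant of the 10 in CTL, at 27582 ± 9467 normalised units per kb (SD, n = 4), 79th of the 16472 genes with an annotated length. In SKO it was at 11885 ± 814 per kb.

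Tdrd7, whose product also builds the chromatoid body and is needed in the lens, was second in level, at 16531 ± 4089 per kb in CTL and 10064 ± 1427 per kb in SKO (SD, n = 4 each). Its normalised values were 51425, 54772, 87033 and 68496 in the CTL libraries 1 to 4 and 35791, 39410, 36184 and 47950 in the SKO libraries 1 to 4. The groups did not overlap, though SKO 4 came close to CTL 1. The log2 fold change was -0.69 with a standard error of 0.19 (limma adjusted p = 0.0341), and -0.52 within the libraries with less 18S (limma adjusted p = 0.0182). In CTL the levels per kb of Tdrd6 and Tdrd7 were farther apart than in SKO. There the means of Tdrd7 (10064 ± 1427) and Tdrd6 (11885 ± 814) differed by little more than the spread between libraries. Within every SKO library Tdrd6 still lay above Tdrd7 per kb. Tdrd5, a LOTUS and Tudor domain protein needed for pachytene piRNAs and for the chromatoid body, had 19065, 17372, 19080 and 20456 in the CTL libraries 1 to 4 and 12487, 15742, 15586 and 15100 in the SKO libraries 1 to 4. It had the smallest spread in CTL of the 10 genes (coefficient of variation 6.65%), and all SKO libraries lay below all CTL libraries, but at a log2 fold change of -0.37 it did not pass (limma adjusted p = 0.0669). It passed with median-ratio factors (log2 fold change -0.44, limma adjusted p = 0.0474).

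Rnf17, a RING finger and Tudor protein of a granule of its own in spermatocytes and spermatids, had 23722, 27365, 32114 and 39946 in the CTL libraries 1 to 4 and 17253, 21674, 18895 and 22700 in the SKO libraries 1 to 4. The highest SKO library lay just under the lowest CTL library. The log2 fold change was -0.59 with a standard error of 0.18 (limma adjusted p = 0.0459), and it missed the threshold within the libraries with less 18S (log2 fold change -0.41, limma adjusted p = 0.0516).

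Tdrd1, Tdrd9, Tdrd12 and Tdrkh act in the piRNA cycle itself. Tdrd1, a scaffold of the intermitochondrial cement that binds PIWIL2, lies on chromosome 19, 56826209 to 56870012, plus strand. It had 30261, 32899, 51285 and 56687 in the CTL libraries 1 to 4 and 19234, 27412, 26955 and 26235 in the SKO libraries 1 to 4. CTL 3 and CTL 4 were the high libraries and SKO 1 the low one. The log2 fold change was -0.74 with a standard error of 0.23, just past the threshold (limma adjusted p = 0.0488), and -0.38 within the libraries with less 18S, where it did not pass (limma adjusted p = 0.107). Tdrd9, a helicase that works with PIWIL4 in silencing transposons, lies on chromosome 12, 111971559 to 112068854, plus strand. It had 23346, 22708, 34256 and 36461 in the CTL libraries 1 to 4 and 16805, 19774, 19290 and 18610 in the SKO libraries 1 to 4, without overlap. Its log2 fold change was -0.62 with a standard error of 0.18 (limma adjusted p = 0.0413), and -0.31 within the libraries with less 18S (limma adjusted p = 0.0678).

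Tdrd12, a second helicase that acts in the making of secondary piRNAs, had 7374, 6878, 11028 and 14104 in the CTL libraries 1 to 4 and 5071, 6358, 6425 and 8085 in the SKO libraries 1 to 4. SKO 4 lay above CTL 1 and CTL 2, and the difference did not pass (log2 fold change -0.56, limma adjusted p = 0.128). Tdrkh, a Tudor and KH domain protein on the surface of mitochondria that helps to trim the ends of piRNAs, was the least abundant of the 10 (1058 ± 216 per kb in CTL, SD, n = 4). It had 5411, 5661, 6584 and 8336 in the CTL libraries 1 to 4 and 4593, 6027, 6130 and 5394 in the SKO libraries 1 to 4, with overlapping groups (log2 fold change -0.22, limma adjusted p = 0.383). Its value is uncertain: 36.7% of its exon bases overlap Oaz3, a spermatid gene on the opposite strand, and the library kit does not mark strand. Oaz3 ranged from 4048 to 39114 in CTL and from 7861 to 31663 in SKO.

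The last pair stood somewhat apart from the piRNA cycle. Stk31, which joins a Tudor to a kinase-like domain in spermatocytes and spermatids, had 14297, 13780, 20021 and 28235 in the CTL libraries 1 to 4 and 11515, 16239, 15223 and 18367 in the SKO libraries 1 to 4. The SKO libraries lay within or below the CTL range (log2 fold change -0.27, limma adjusted p = 0.454), and within the libraries with less 18S the value was 0.012. Tdrd3 is the member that most tissues express, a reader of methylated arginine on histones that works with the topoisomerase TOP3B. It had 7544, 6859, 9646 and 11456 in the CTL libraries 1 to 4 and 5407, 5231, 6026 and 9071 in the SKO libraries 1 to 4. SKO 4 alone reached into the CTL range, and the difference did not pass (log2 fold change -0.47, limma adjusted p = 0.153). Without SKO 4 it was -0.65 and passed (limma adjusted p = 0.0443).

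The order of the levels per kb in CTL was Tdrd6, Tdrd7, Tdrd1, Stk31, Tdrd9, Rnf17, Tdrd5, Tdrd12, Tdrd3 and Tdrkh. Neighbours from Tdrd1 (7860 ± 2419) through Stk31 (5895 ± 2077) and Tdrd9 (5391 ± 1326) to Rnf17 (4933 ± 1123) differed by less than their spread (SD, n = 4 each), as did Tdrd5 (2738 ± 182) from Tdrd12 (2270 ± 781). That spread is between libraries and does not measure the order within a library. Per kb, Tdrd1 lay above Stk31 in every CTL library, while the other neighbours named changed order between CTL libraries. In SKO, Stk31 (4738 ± 885 per kb) came ahead of Tdrd1 (4585 ± 707 per kb), again by less than the spread.

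Ratios of 2 genes within a library do not depend on the scaling between libraries. Among the 45 pairs of Tudor genes the log2 ratios of CTL and SKO did not overlap in 14, where 21.7% of all pairs of genes in the table did not. In 9 of the 14 Tdrd6 was one of the pair, and it was the lower one in SKO each time: relative to each of the other 9 genes Tdrd6 was lower in all 4 SKO libraries than in any CTL library. The smallest of these differences was against Tdrd1, where the log2 ratio of Tdrd1 to Tdrd6 was higher by 0.41 in SKO. Against Tdrd7 the log2 ratio went from 1.54 ± 0.22 to 1.08 ± 0.15, against Tdrd9 from 2.70 ± 0.17 to 2.17 ± 0.05 and against Tdrkh from 4.86 ± 0.32 to 3.93 ± 0.13 (SD, n = 4 each). Each of the 14 had an exact two-sided permutation p of 0.0286, the smallest that 4 against 4 can give, and 0.0918 after Benjamini-Hochberg adjustment over the 45 pairs, which would need 26 pairs at that p to pass. The other 5 pairs held no Tdrd6: relative to CTL, the ratio of Tdrkh to each of Tdrd1, Tdrd9 and Rnf17 was higher in SKO, as was the ratio of Stk31 to Tdrd1 and to Tdrd12. Among the pairs without Tdrd6, these 5 are a smaller share than the 21.7% of all gene pairs. They are no result about the genes they hold. Ratios with Tdrkh carry the limit given above, the overlap of its exons with Oaz3. Tdrd6 was lower without overlap against 66.1% of all other genes in the table as well.

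**Figure D3:**
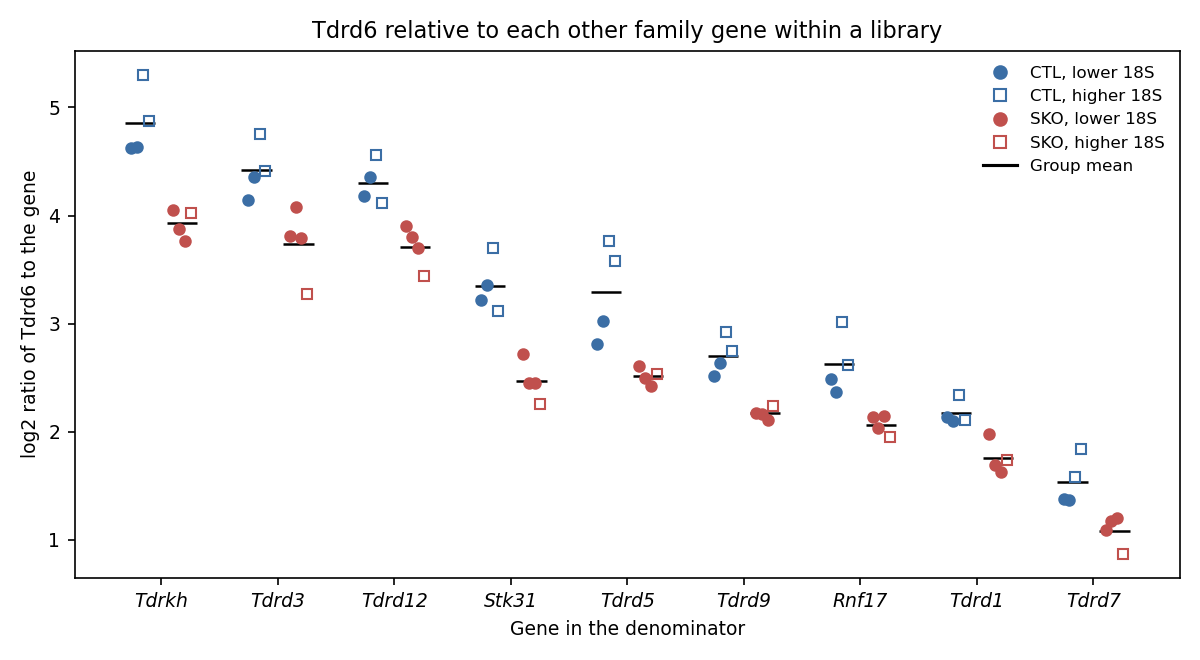
log2 ratio of Tdrd6 to each of the other 9 Tudor genes within each library (no scaling between libraries enters); symbols as in the plot of values by library, bars are group means. In all 9 columns the 4 SKO libraries lie below the 4 CTL libraries, with group means of 1.54 and 1.08 for Tdrd7 and 4.86 and 3.93 for Tdrkh.

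Ddx4 (the helicase VASA, carried by germ cells at most stages and itself part of these granules) gave a germ cell reference, a comparison added after the data were seen. Ddx4 itself went from 70377 ± 11980 to 45775 ± 5775 (SD, n = 4 each; log2 fold change -0.61, limma adjusted p = 0.0314). Relative to Ddx4, Tdrd6 was lower in SKO without overlap (difference -0.54 on the log2 scale), and Tdrkh was higher without overlap (0.39), each with an exact two-sided permutation p of 0.0286 and an adjusted value of 0.143 over the 10 genes. The other 8 overlapped, with differences from -0.13 (Tdrd1) to 0.34 (Stk31). A ratio to Ddx4 without overlap was found for 42.9% of all genes, a larger share than among the 10 Tudor genes. The lack of overlap in Tdrd6 and Tdrkh is thus no result about the Tudor genes. The value of Tdrkh is uncertain here too, since Oaz3 shares part of its exon bases.

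When the library factors were set to hold 8 pachytene and later spermatocyte markers level, 0 of the 10 Tudor genes passed by limma (0 at an unadjusted p below 0.05). Of all 17066 genes only 9 (0.0527%) fell in that fit and 6257 rose, so the 0 is no result about the Tudor genes. The value of Tdrd6 was then -0.66 (limma adjusted p = 0.133), and those of Tdrd3, Tdrd5, Tdrkh and Stk31 were above 0, at 0.023, 0.12, 0.28 and 0.22. The markers used were Hspa2, Adam2, Ccna1, Ldhc, Pgk2, Clgn, Tbpl1 and Ybx2. In the TMM fit they fell in 4 of 8 cases, with 0 risen, where 7.93% of all genes fell and 11.9% rose. Their summed level was 684662 to 1004510 in CTL and 567347 to 694214 in SKO. Within CTL it went the other way from the Tudor genes: CTL 1 and CTL 2 had 957975 and 1004510 against 803753 and 684662 in CTL 3 and CTL 4, while the summed Tudor genes had 315907 and 329257 against 531186 and 528750. Of these Tudor sums of CTL 1 to 4, Tdrd6 alone made up 133460, 140962, 260140 and 244573, so the sums weigh Tdrd6 most. In SKO 1 to 4 the summed Tudor genes had 204167, 246526, 234150 and 259140.

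Markers of other cells also differed between the libraries, and their part in the Tudor result was not tested. Sertoli cell markers rose in 9 of 11 cases, with sums of 75087 to 169462 in CTL and 169221 to 338982 in SKO, and SKO 4 lay within the CTL range. Spermatogonia markers rose in 4 of 7 (15201 to 19558 in CTL, 26370 to 31307 in SKO), early prophase spermatocyte markers in 1 of 6 (24396 to 34189 and 29058 to 39864), peritubular myoid markers in 3 of 5 (20293 to 24137 and 35336 to 41153), Leydig markers in 1 of 6 (39408 to 49649 and 31211 to 64032) and heart muscle markers in 1 of 3. None of these lists had a fallen member by limma (at an unadjusted p below 0.05, 1 each of the Leydig and early prophase markers was lower). Over all genes 11.9% rose and 7.93% fell in the TMM fit. A list with 1 risen marker is near that share or too short to read, and is no result about those cells. By limma 0 of 6 macrophage markers (8121 to 9811 in CTL, 7543 to 14027 in SKO), 0 of 5 endothelial markers (4203 to 7707 and 3566 to 7565), 0 of 5 round spermatid markers (19647 to 66507 and 21146 to 45130) and 0 of 5 elongating spermatid markers passed. At an unadjusted p below 0.05, 2 macrophage markers were higher, 1 endothelial marker was lower, and 0 spermatid markers differed. The elongating spermatid sum spread most, from 31688 in CTL 4 to 387392 in CTL 2 and from 82976 in SKO 2 to 367392 in SKO 1. No marker was at 0 in all libraries.

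**Figure D4:**
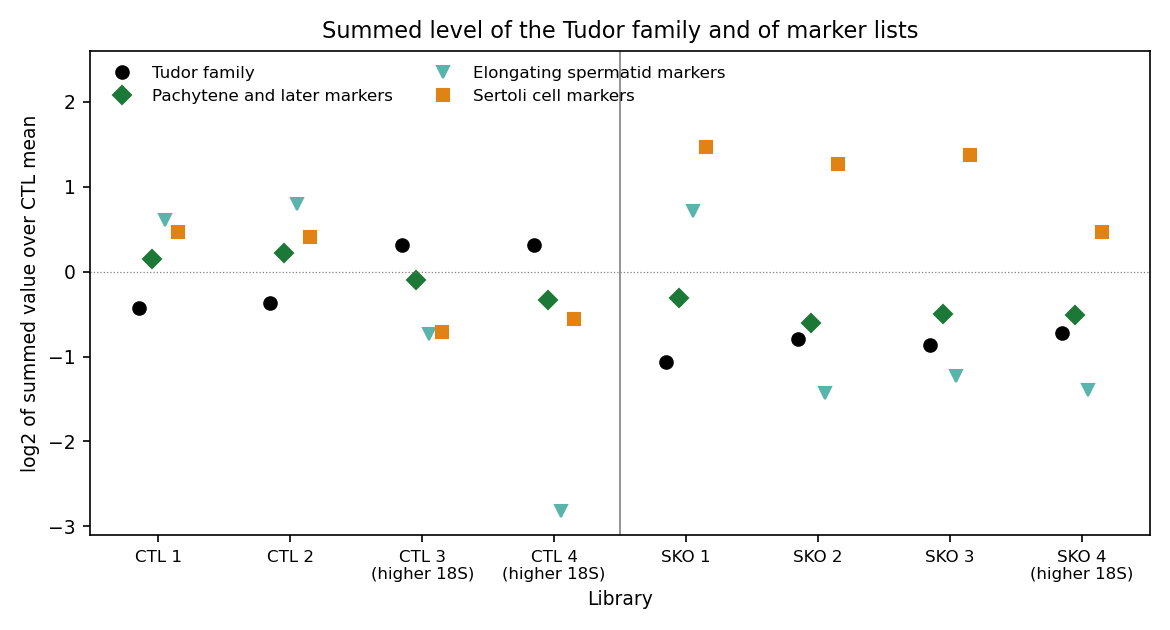
Summed normalised value of the 10 Tudor genes and of 3 marker lists in each library, as log2 over the CTL mean of the same sum; libraries with more 18S RNA are marked on the axis. The Tudor sum is highest in CTL 3 and CTL 4 and below every CTL library in the 4 SKO libraries, whereas the Sertoli sum is lowest in CTL 3 and CTL 4.

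The partners of the Tudor proteins in the piRNA pathway went both ways. Of 23 such genes, 6 fell, 5 rose and 12 did not pass, with a median log2 fold change of -0.26. That is 26.1% fallen and 21.7% risen, against 7.93% and 11.9% of all genes. Without SKO 3 limma called 0 of them in either direction. Without CTL 3, SKO 1 and SKO 2 the fallen counts were 2, 1 and 3, where 3.22%, 2.75% and 2.96% of all genes fell. Without CTL 2, CTL 3, CTL 4, SKO 1 and SKO 2 the risen counts were 3, 2, 3, 2 and 2. Over all genes 1108, 688, 1899, 812 and 829 rose in these fits, against 2038 with all 8 libraries. Piwil1, the PIWI protein of pachytene cells, had 55513, 52677, 62532 and 61156 in the CTL libraries 1 to 4 and 29479, 39458, 39258 and 31253 in the SKO libraries 1 to 4 (log2 fold change -0.74, limma adjusted p = 0.015). Here CTL 3 and CTL 4 stood only slightly above CTL 1 and CTL 2, unlike in Tdrd6. Spocd1, which links piRNAs to DNA methylation, fell by 0.86 on the log2 scale (limma adjusted p = 0.0444), and Henmt1, which methylates the 3′ end of piRNAs, fell by 0.68 (limma adjusted p = 0.0217), with 14.7% of its exon bases shared with a gene on the other strand. Piwil4, the nuclear PIWI protein and partner of Tdrd9, rose by a log2 fold change of 1.55 (limma adjusted p = 0.0308) from a low level, 42.5 ± 21.8 to 123 ± 23.8 (SD, n = 4 each), with as few as 10.2 reads behind a value. Btbd18, which promotes transcription of pachytene piRNA precursors, rose by 0.94 (limma adjusted p = 0.0123), and Fkbp6, a co-chaperone of piRNA loading, by 0.67 (limma adjusted p = 0.0136). Mybl1, the transcription factor A-MYB that drives pachytene piRNA genes and several Tudor genes, averaged 15992 ± 8680 in CTL and 10541 ± 2910 in SKO (SD, n = 4 each), a difference that did not pass (log2 fold change -0.49, limma adjusted p = 0.366).

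Of 18 genes for RNA processing in the chromatoid body 2 fell, 0 rose and 16 did not pass (median log2 fold change -0.34; 5 lower and 0 higher at an unadjusted p below 0.05). The fallen share of 11.1% was near the 7.93% of all genes, so it is no result about the list. The fallen count was 0 without SKO 3, 1 without CTL 3, SKO 1 or SKO 2, 4 without CTL 4 and 5 without CTL 1. Of all genes 0%, 3.22%, 2.75%, 2.96%, 8.52% and 8.15% fell in these fits. Ddx25, a helicase of the chromatoid body, went from 59568 ± 5193 to 39482 ± 1228 (SD, n = 4 each; log2 fold change -0.59, limma adjusted p = 0.0161), and Fxr1, an RNA-binding protein of spermatids, fell by 0.46 (limma adjusted p = 0.0346). Among 22 Tudor domain genes of other families (histone readers, demethylases and splicing factors) 0 fell, 3 rose and 19 did not pass by limma, with a median of 0.12 (1 lower and 5 higher at an unadjusted p below 0.05). The risen share of 13.6% was near the 11.9% of all genes and is likewise no result about the list. The risen count was 0 without CTL 1, CTL 2, CTL 3, SKO 1 or SKO 3, and 1 without SKO 2. Over all genes 1392, 1108, 688, 812, 0 and 829 rose in these fits. The 3 were the chromatin readers Phf20l1 (log2 fold change 0.60, limma adjusted p = 0.0228) and Spin1 (0.58, limma adjusted p = 0.0386) and the histone demethylase Kdm4c (0.54, limma adjusted p = 0.0389).

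**Figure D5:**
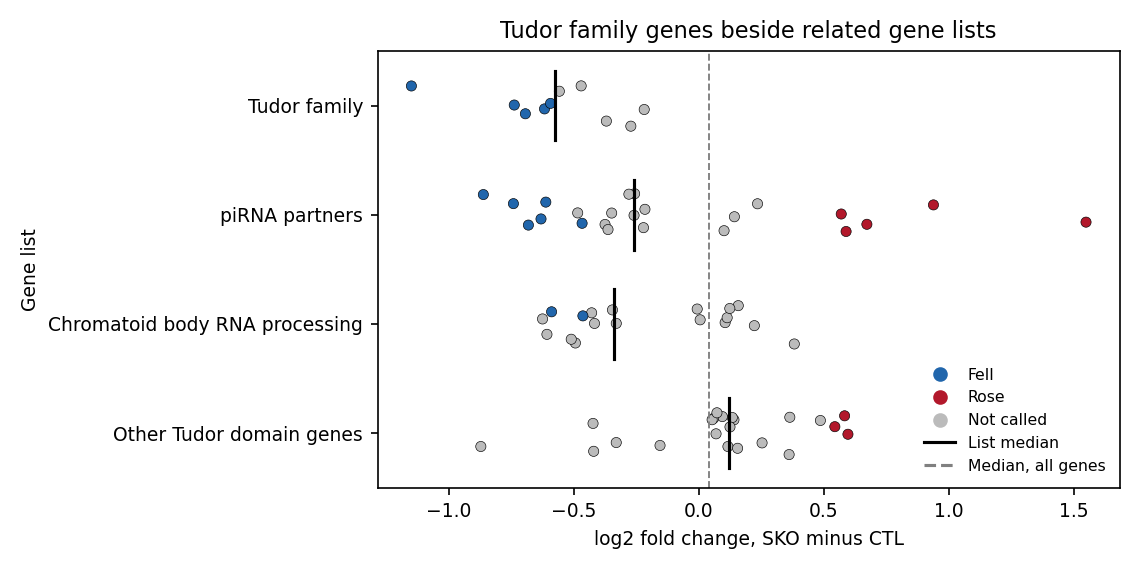
log2 fold change (SKO minus CTL) of each gene of the Tudor family and of 3 related lists (blue fell, red rose, grey not called), with each list's median as a black line and the median of all genes tested as a dashed line at 0.04. The medians are -0.58, -0.26, -0.34 and 0.12 from top to bottom.

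The genes whose values ran most closely with Tdrd6 over the 8 libraries, outside these lists, were Cdk5rap2 (Pearson r = 0.999), Top3b (r = 0.999) and Clec16a (r = 0.998). The 8 points share the split between the groups and the high values of CTL 3 and CTL 4, which alone can give a high r. Top3b had 9298, 9740, 13196 and 13180 in the CTL libraries 1 to 4 and 6831 to 7609 in SKO.

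The sequences before the gene starts were searched for short motifs, as a description. RefSeq promoters of GRCm38.p6 were at hand for 8 of the 10 genes (all but Tdrd6 and Rnf17), and the 250 bases before each listed start were read on both strands (a gene counts where any listed start has a match). AACNGTT, the full site of MYB proteins, was in 0 of the 8 (4.27% of 27025 genes in the table). CAGTTG, a shorter form, was in 1 (Tdrd7; 12.6% of genes), CCAAT in 2 (37.5%), GGGCGG in 5 (35.4%) and TATAAA in 2 (14.3%). The E-box CACGTG was in 3 (Tdrd1, Tdrd9 and Stk31), against 6.86% of genes. These 3 windows are shown because this motif had the largest share of members over that of all genes, and were picked after the matches were seen; capitals mark the E-box, whose first base lay 11 bases before the start in Tdrd1, 165 and 95 in Tdrd9 and 55 in Stk31. They are chr19:56825959-56826208, chr12:111971309-111971558 and chr6:49395289-49395538, all on the plus strand, each at the most upstream start listed.
Tdrd1: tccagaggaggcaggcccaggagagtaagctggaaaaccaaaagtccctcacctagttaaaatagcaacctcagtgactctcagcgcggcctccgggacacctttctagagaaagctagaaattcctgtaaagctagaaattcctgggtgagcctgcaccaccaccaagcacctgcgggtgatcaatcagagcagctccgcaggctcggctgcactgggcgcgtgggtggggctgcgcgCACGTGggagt
Tdrd9: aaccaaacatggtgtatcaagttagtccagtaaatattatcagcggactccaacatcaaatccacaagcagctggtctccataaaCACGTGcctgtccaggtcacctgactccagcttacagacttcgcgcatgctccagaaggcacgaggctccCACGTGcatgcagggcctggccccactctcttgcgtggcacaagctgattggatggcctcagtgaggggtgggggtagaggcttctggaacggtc
Stk31: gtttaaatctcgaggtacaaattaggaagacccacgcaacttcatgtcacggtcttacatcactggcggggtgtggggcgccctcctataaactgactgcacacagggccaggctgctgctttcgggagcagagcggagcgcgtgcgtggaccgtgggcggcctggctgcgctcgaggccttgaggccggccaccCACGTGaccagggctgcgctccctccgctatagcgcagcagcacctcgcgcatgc
Of the 3 genes that carry it, Tdrd1 and Tdrd9 fell and Stk31 did not pass. Of the genes searched that lack it, Tdrd7 fell and Tdrd3, Tdrd5, Tdrd12 and Tdrkh did not pass. A link between the motif and the change was not tested.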

How the data were processed

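Expression was measured by RNA-seq in 8 mouse testis libraries, 4 CTL and 4 SKO, grouped by sample title. The submitters' processing notes name HISAT2 2.0.5, featureCounts 1.5.0-p3, CASAVA and fastp and the build mm10, without their settings. Per the labels' protocols, the kit was NEBNext Ultra RNA. The deposited values are a score, not counts: the authors scaled read counts by a factor per library and rounded them, as the gaps between values show (in 6 libraries 100% of values up to 1000 equal a whole number of reads times the factor, rounded, where chance gives 43.1% to 68.0%; in CTL 1 and CTL 2 no factor was found). How the factors were set is not given in these sources.

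The filter kept genes that reached 25 in 4 or more libraries. After division by TMM factors (trims of 30% and 5%), log2(value + 5) entered a limma 3.58.1 fit under R 4.3.3 (variance trend, no covariate, two-sided, Benjamini-Hochberg over 17066 genes, threshold 0.05). The added 5 makes fold changes of low genes too small. The fit was tested on simulated data. The chi-square per gene between pairs of libraries was 47.9 or more, computed on the scaled values as if they were counts. Scaling alters this value, and the factors of CTL 1 and CTL 2, the pair at 47.9, are unknown. It is therefore no exact measure against sampling noise. Gene positions, exon lengths (union of exons) and overlaps came from GENCODE M21 (GRCm38, the assembly of mm10). The Tudor genes, the lists and the rule for named genes (all members, up to 3 fallen and 3 risen genes per related list, Ddx4, Piwil1, Mybl1, N6amt1 and the 3 genes most like Tdrd6) were chosen with earlier results of these data known. Oaz3 was named for its overlap with Tdrkh. The alternatives were other scalings, added constants of 1 and 25, no filter, other variance models, the 18S library sets (limit 0.5% of values), a replicate block, leaving out each library and, added after seeing the data, a correction for length and GC content.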

Additional observations from a re-analysis of the deposited data

Results flagged for a closer look

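Of 56 groups of 4 libraries checked (28 named genes in each genotype), 2 held a library far from the other 3, and chance flags about 1 in 20. Tdrd1 was 19234 in SKO 1, against 26235 to 27412 in the other SKO libraries. Oaz3, which overlaps Tdrkh, was 31663 in SKO 1, against 7861 to 10513 in the others. SKO 1 was also the lowest SKO library for 9 of the 10 Tudor genes and had the highest sum of elongating spermatid markers in SKO.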

How the results depend on the processing

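Over 23 alternatives, Tdrd6 stayed below 0 in each. Leaving aside the fit within the libraries with more 18S, it lost its call in 2 (without SKO 3 and with pachytene markers held level). The number of fallen Tudor genes (5) became 3 under upper quartile scaling (6.80% of all genes fell) and 1 under library totals (2.67%). It was 0 with pachytene markers held level (0.0527%) and 10 with Sertoli markers held level, where 71.0% of all genes fell. By limma without the mean trend it was 2 (6.52%), and within the libraries with less 18S it was 3 (13.4%). Calls within the libraries with more 18S are not counted, since SKO 4 is the single SKO library there. The fold changes that changed sign were those of Tdrkh (0.072) and Stk31 (0.018) with library totals, of Tdrd3 (0.023), Tdrd5 (0.12), Tdrkh (0.28) and Stk31 (0.22) with pachytene markers held level, of Tdrkh (0.053) and Stk31 (0.041) with sample weights, and of Stk31 (0.012) within the libraries with less 18S. Leaving out 1 library at a time gave 0 to 5 fallen and 0 risen Tudor genes, 0 to 7 fallen and 0 to 5 risen piRNA partners, 0 to 5 fallen and 0 risen chromatoid body genes, 0 to 1 fallen and 0 to 4 risen other Tudor domain genes, 14 to 19 Tudor pairs without overlap, and 2 to 3 Tudor genes whose ratio to Ddx4 did not overlap. Over all genes 0% to 8.95% fell and 0 to 2455 genes rose in the fits without 1 library. The pair test has no p below 0.05 with 3 against 4 libraries, so it was not run there. The cause of these shifts was not tested.

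Of all 17066 genes, 456 fell and 4885 rose with library totals, 9 and 6257 with pachytene markers level, and 12123 and 6 with Sertoli markers level. Sample weights gave 4700 and 5320, median-ratio factors 1657 and 1602, and the libraries with less 18S 2283 and 3194 (of 17003). The 18S covariate gave 2210 fallen and the length and GC correction 2109. The list counts below are to be read beside these. For piRNA partners, fallen and risen counts (6 and 5) became 1 and 7 with library totals, 0 and 8 with pachytene markers level, and 20 and 0 with Sertoli markers level. For chromatoid body genes (2 and 0) fallen counts were 5 with median-ratio factors, 0 with library totals (1 risen) and 0 with pachytene markers level. They were 17 with Sertoli markers level, 6 (6 risen) with sample weights and 4 with the 18S covariate. Within the libraries with less 18S 4 fell (1 rose), and with the length and GC correction 5 fell. For other Tudor domain genes (0 and 3) fallen and risen counts were 1 and 1 with median-ratio factors, 7 risen with library totals and 9 risen with pachytene markers level. They were 18 and 0 with Sertoli markers level, 4 and 10 with sample weights and 1 and 5 within the libraries with less 18S. With the 18S covariate 2 fell, and with the length and GC correction 2 fell.

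The deviations of same-numbered libraries from the group means correlated at 0.67, 0.01, 0.08 and 0.23 for numbers 1 to 4, and CTL 2 correlated best with SKO 1 (0.71). These correlations cannot show whether same-numbered libraries were made together, and the main fit used no pairing. With a replicate block 7 Tudor genes fell (adding Tdrd3 and Tdrd12), where 9.97% of all genes fell. In that fit 4 chromatoid body genes and 1 other Tudor domain gene fell. In the 6 libraries whose factor was known, 2313 reads or more lay behind each value of the Tudor genes; the reads of CTL 1 and CTL 2 are unknown.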
